A study of Mus musculus with 6 samples.

Results

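The 10 genes described here encode muscle ubiquitin ligases, their substrate adaptors and kelch proteins: *Trim54*, *Trim55*, *Trim63*, *Fbxo32*, *Fbxo30*, *Klhl31*, *Klhl40*, *Klhl41*, *Asb2* and *Asb5*. They were taken by gene symbol from the deposited matrix of 55401 genes, each symbol stood on 1 row, and 10 of 10 passed the filter on low counts that left 17310 genes. They were measured in C2C12 mouse myoblasts, an established line whose cells exit the cycle and fuse once serum is lowered, 2 d post differentiation. The control group (3 libraries, wild type in the sample labels) was a mock pool that had received a plasmid with Cas9, the ZsGreen reporter and a guide without a match in the mouse genome. The *Phf2* KO group (3 libraries) had received a mixture of 4 plasmids of the same kind, each with a guide against *Phf2*, the gene of an H3K9me2 demethylase. Both groups were sorted for ZsGreen, expanded without single-cell cloning, frozen and then differentiated in 2% horse serum. Each group is thus 1 pool of sorted cells, the libraries are wells of a single experiment, and p-values measure the spread between such wells, which may be technical. A difference between the pools and an effect of *Phf2* itself cannot be told apart.

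Ubiquitin ligases choose the proteins that are tagged with ubiquitin and then degraded by the proteasome. *Trim63*, *Trim55* and *Trim54* encode the muscle RING-finger proteins MuRF1, MuRF2 and MuRF3, which bind titin or microtubules and act on sarcomere proteins. *Fbxo32* encodes atrogin-1 and *Fbxo30* encodes MUSA1, F-box adaptors of cullin 1 ligases that are induced together with MuRF1 in wasting muscle. Kelch proteins of the KLHL family carry a BTB domain that can bind cullin 3. KLHL40 and KLHL41 are known for stabilizing nebulin and other thin-filament proteins, and loss of either causes nemaline myopathy. ASB proteins carry ankyrin repeats and a SOCS box that binds cullin 5 ligases, and ASB2 directs filamins to degradation.

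The promoters were examined for the E-box CAGCTG, a sequence bound by MyoD and myogenin. RefSeq promoters (GRCm38.p6, windows of 300 bases that end shortly after a transcription start) were found for 8 of the 10 genes, with 11 promoters in all; *Trim55* and *Fbxo32* were not in the table. CAGCTG lay in at least 1 promoter of 6 of these 8 genes (*Asb2*, *Asb5*, *Klhl40*, *Klhl41*, *Trim54* and *Trim63*), against 18.3% of all 27025 genes. It lay in 6 of the 11 promoters, against 16.3% of all 32851 promoters. Both strands were searched throughout, and CAGCTG reads the same on either. The wider pattern CANNTG, which includes it, lay in promoters of the same 6 genes and in 72.3% of all promoters. Those of *Trim54*, *Trim63*, *Klhl40* and *Klhl41* are shown because these are the MuRF and KLHL genes with this E-box. They run 5′ to 3′ on the plus strand, and capitals mark CAGCTG.
Trim54, chr5:31116362-31116661: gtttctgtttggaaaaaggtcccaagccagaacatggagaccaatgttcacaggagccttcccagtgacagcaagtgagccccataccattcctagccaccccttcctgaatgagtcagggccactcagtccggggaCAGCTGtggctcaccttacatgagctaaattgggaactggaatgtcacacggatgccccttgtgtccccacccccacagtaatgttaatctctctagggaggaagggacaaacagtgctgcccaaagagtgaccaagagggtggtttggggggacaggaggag
Trim63, chr4:134314870-134315169: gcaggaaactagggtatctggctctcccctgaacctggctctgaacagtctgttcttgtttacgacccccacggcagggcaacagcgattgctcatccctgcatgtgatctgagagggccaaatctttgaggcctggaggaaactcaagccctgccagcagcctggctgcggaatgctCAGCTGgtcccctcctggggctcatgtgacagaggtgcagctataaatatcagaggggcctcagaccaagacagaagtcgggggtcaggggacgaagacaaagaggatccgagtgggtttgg
Klhl40, chr9:121777357-121777656: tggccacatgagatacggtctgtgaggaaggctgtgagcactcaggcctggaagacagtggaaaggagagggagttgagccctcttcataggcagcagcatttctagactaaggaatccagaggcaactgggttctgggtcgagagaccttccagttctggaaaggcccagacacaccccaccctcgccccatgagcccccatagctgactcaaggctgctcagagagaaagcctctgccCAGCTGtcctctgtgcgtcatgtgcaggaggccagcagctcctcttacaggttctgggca
Klhl41, chr2:69669870-69670169: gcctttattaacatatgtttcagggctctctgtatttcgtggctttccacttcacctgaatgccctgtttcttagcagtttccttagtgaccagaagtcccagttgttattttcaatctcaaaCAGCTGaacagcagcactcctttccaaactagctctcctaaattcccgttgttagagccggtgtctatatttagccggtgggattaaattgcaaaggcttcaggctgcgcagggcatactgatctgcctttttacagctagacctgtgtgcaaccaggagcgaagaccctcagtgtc
The E-box began 113 bases before the start in *Trim54*, 72 in *Trim63*, 10 in *Klhl40* and 127 in *Klhl41*. Distances are from the RefSeq start of each window. The *Trim54* window ends before the gene start of the deposited tables, 31116712, so from that start its E-box lies farther upstream. For *Asb2* and *Asb5* the windows with CAGCTG lie inside the genes as the deposited tables place them. In both, CAGCTG began after the RefSeq start, at positions 22 and 29. The FOXO sequence GTAAACA lay in the *Trim63* promoter alone among the 8 genes, 194 bases before the start, and in 3.65% of all promoters. A MEF2 site lay in *Klhl41*, 63 bases before the start, and in 1 *Asb5* promoter, against 3.19% of all promoters. A CArG box, the site of serum response factor, lay in 1 promoter each of *Asb2* and *Asb5*, against 1.63%. In the comparison below, *Trim54*, *Trim63* and *Klhl40*, with CAGCTG, and *Klhl31*, without it, passed the threshold of edgeR's quasi-likelihood test. *Klhl41*, *Asb2* and *Asb5*, with CAGCTG, and *Fbxo30*, without it, did not pass. These matches describe the letters of the windows. Binding was not measured in these libraries, and a part of these sites in the changes below was not tested.

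The libraries held between 52526109 and 67502788 estimated counts. Covered bases per count had a median of 74.98 to 74.99 over single-transcript genes with at least 500 counts, so at the read length of the study a read pair adds about 4 counts. The 10 genes had between 353 and 11560 counts in a library. *Phf2* RNA was at 38.8% of its control level in *Phf2* KO cells, with groups that did not overlap. PHF2 protein, which the study measured in the myoblasts before differentiation, fell further by its report. Markers of the culture were read in the same libraries. Of 8 myotube markers, 6 were lower in *Phf2* KO cells past the threshold and 0 higher (edgeR's quasi-likelihood test; 8 had an unadjusted p under 0.05), and their summed level was 8579 to 10010 CPM in control cells and 6750 to 7227 CPM in *Phf2* KO cells. Of 8 markers of undifferentiated or cycling myoblasts, 0 passed the quasi-likelihood test in either direction, 2 had an unadjusted p under 0.05 and 1 was higher past the threshold with each of exactTest, DESeq2 and limma-voom, with sums of 306.0 to 344.7 and 376.2 to 383.4 CPM. Much of the difference in the sums was *Id3*, with 82.25 to 109.8 CPM in control cells and 127.0 to 147.8 CPM in *Phf2* KO cells. The cycling markers *Mki67*, *Top2a*, *Cdk1* and *Ccnb1* had log2 fold changes of 0.0066, 0.015, 0.039 and -0.083. Of 12 markers of other cell types, 8 were under 0.5 CPM in every library, among them *Tcf21* at 0 and the fat, endothelial and leukocyte markers *Adipoq*, *Cdh5* and *Ptprc*. Of the 5 that could be tested, 0 passed the quasi-likelihood test, exactTest or DESeq2 (0 at an unadjusted p under 0.05). The summed level of the 12 was 46.4 to 61.1 and 50.6 to 53.6 CPM. Most of it came from *Sox9*, with 42.1 to 56.6 CPM in control cells and 45.1 to 48.1 CPM in *Phf2* KO cells. The part of the myotube markers in the results below was not tested, and fewer myotubes and less RNA per myotube cannot be told apart in bulk RNA.

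Levels of different genes were compared as TPM, which is scaled by transcript length. *Asb5* and *Klhl41* stood far above the other 8 genes and held 68.3% of the summed TPM of the 10 genes in control cells. The control means were 203.4 ± 2.31 TPM (SD, n = 3) for *Asb5* and 159.3 ± 19.0 TPM for *Klhl41*. They were 39.6 ± 4.61 TPM for *Trim54*, 35.4 ± 1.70 for *Trim55*, 28.2 ± 3.07 for *Klhl40*, 24.3 ± 1.61 for *Fbxo32* and 16.6 ± 1.05 for *Fbxo30*. The lowest levels were 10.55 ± 0.076 TPM for *Trim63*, 8.48 ± 1.03 for *Asb2* and 4.99 ± 0.479 for *Klhl31*. The ranges over 3 control libraries overlapped for *Trim54* and *Trim55* and for *Klhl40* and *Fbxo32*, and did not overlap for the other neighbours in this order. Among the MuRF genes, *Trim63* was the lowest in every library in these reference rows. Summed over loci that the deposited tables list as assembled from the reads, *Trim63* had 31.8 ± 9.49 TPM in control cells (SD, n = 3) and stood above *Trim55* and *Trim54* in *Phf2* KO replicate 2, with 31.4, 27.65 and 23.6 TPM, so its place in the order depends on the rows used. In *Phf2* KO cells *Fbxo32* took the fourth place, with 27.1 ± 1.16 TPM, and *Klhl40* the seventh, with 16.9 ± 0.58 TPM. The summed level of the 10 genes was 499.8 to 556.0 TPM in the control libraries and 439.0 to 471.0 TPM in the *Phf2* KO libraries.

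**Figure D1:**
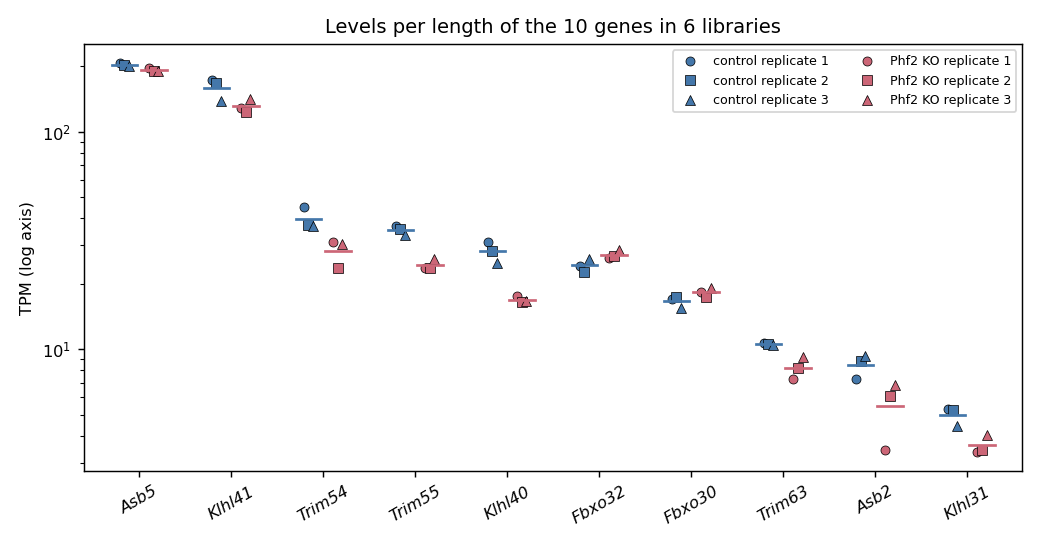
Level per length (TPM, log axis) of the 10 genes, ordered by the control mean, with 1 point per library and a short line at each group's mean (3 control libraries in blue, 3 *Phf2* KO libraries in red). *Asb5* and *Klhl41* lie above 100 TPM in every library, and *Klhl31* lies lowest with 3.37 to 5.29 TPM.

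*Phf2* KO was compared with control for all 17310 genes by edgeR's quasi-likelihood test. Of the 10 genes, 5 fell with an adjusted p under 0.05, namely *Klhl40*, *Trim55*, *Trim54*, *Klhl31* and *Trim63*, and 0 rose; 9 had an unadjusted p under 0.05, against 19.4% of all genes, and 0 rose also with exactTest and DESeq2. At the adjusted threshold the background was 6.48% of all genes in either direction, 3.26% lower and 3.22% higher. The mean level of the 5 in *Phf2* KO cells was between 59.2% and 76.8% of control. *Klhl41*, *Asb2* and *Asb5* were lower and *Fbxo32* and *Fbxo30* higher without passing the threshold. The median log2 fold change of the 10 genes was -0.43, beside -0.00096 for all genes tested. The groups did not overlap for 8 of the 10 genes, 7 lower and 1 higher, where 25.1% of all genes had such groups (12.2% lower and 12.9% higher). The 10 genes were chosen with results of these libraries known, and *Klhl40* is among the genes that the study printed from them.

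**Figure D2:**
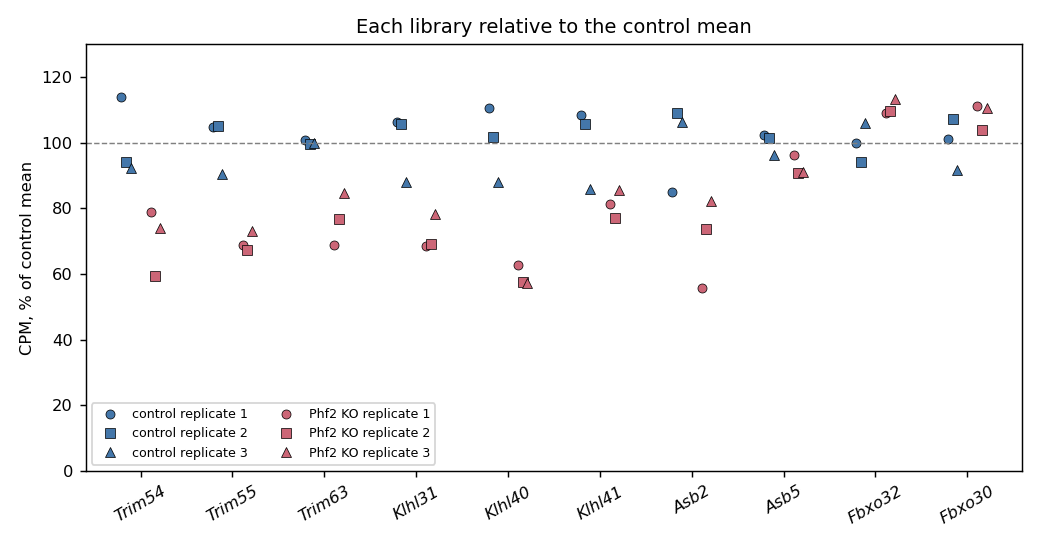
TMM-normalized CPM of each library as a percentage of the gene's control mean (dashed line at 100%), with 3 control libraries in blue and 3 *Phf2* KO libraries in red, and a symbol for each replicate number. The *Phf2* KO points of *Trim54*, *Trim55*, *Trim63*, *Klhl31* and *Klhl40* lie below every control point, and those of *Fbxo32* lie above every control point.

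The 3 MuRF genes fell together. *Trim55* (ENSMUSG00000060913, chromosome 3, 19644474 to 19692421, plus strand) had 43.5, 43.7 and 37.6 CPM (counts scaled to equal library sizes by TMM) in control replicates 1, 2 and 3 and 28.6, 28.0 and 30.4 CPM in *Phf2* KO replicates 1, 2 and 3. Every *Phf2* KO library was low, with a gap to the lowest control library that was wider than the spread within either group. Its mean fell from 41.6 ± 3.49 to 29.0 ± 1.27 CPM (SD, n = 3), by 0.52 on the log2 scale (SE 0.073, adjusted p = 7.67e-04). A short gene on the same strand, *BC002189*, lies within *Trim55* at 1.98 to 4.51 TPM, and reads of their shared part could be assigned to either.

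*Trim54* (ENSMUSG00000062077, chromosome 5, 31116712 to 31137630, plus strand) had 29.95, 24.7 and 24.25 CPM in control cells and 20.8, 15.65 and 19.5 CPM in *Phf2* KO cells. *Phf2* KO replicate 2 was the lowest library and control replicate 1 the highest, and the groups did not overlap. *Trim54* fell by 0.50 on the log2 scale (SE 0.11, adjusted p = 0.0209). *Trim54* passed the threshold in 2 of 6 fits that left out 1 library, those without control replicate 3 and without *Phf2* KO replicate 1, and its largest adjusted p among the other 4 was 0.0745.

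*Trim63* (ENSMUSG00000028834, chromosome 4, 134315120 to 134329629, plus strand) had 18.8, 18.6 and 18.6 CPM in control cells and 12.9, 14.4 and 15.8 CPM in *Phf2* KO cells. The control libraries lay within a very narrow band and the *Phf2* KO libraries were all below it. Its log2 fold change was -0.38 (SE 0.094, adjusted p = 0.0277). It passed only without *Phf2* KO replicate 3 (adjusted p = 0.0301) among the fits that left out 1 library, and the largest of the other 5 was 0.0967. The deposited tables also list loci assembled from the reads, and in every library those at *Trim63* carried more TPM than its reference row.

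The KLHL genes held the largest estimated change and 1 gene that did not pass. *Klhl40* (ENSMUSG00000074001, chromosome 9, 121777607 to 121783818, plus strand) had 34.1, 31.3 and 27.1 CPM in control cells and 19.3, 17.8 and 17.6 CPM in *Phf2* KO cells. The 3 *Phf2* KO libraries lay close together and below the lowest control library. The mean was 30.85 ± 3.495 CPM in control cells and 18.3 ± 0.933 CPM in *Phf2* KO cells (SD, n = 3), which is 59.2% of control or -0.76 as a log2 fold change (SE 0.09, adjusted p = 2.03e-04). By p it ranked 74 among the 17310 genes.

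*Klhl31* (ENSMUSG00000044938, chromosome 9, 77636500 to 77660127, plus strand), which encodes a kelch protein of muscle that acts on filamin C, had 15.9, 15.9 and 13.2 CPM in control cells and 10.3, 10.4 and 11.7 CPM in *Phf2* KO cells. Control replicate 3 and *Phf2* KO replicate 3 were the nearest libraries of the groups, without overlap. *Klhl31* had a log2 fold change of -0.48 (SE 0.11, adjusted p = 0.0186). It passed in 2 of 6 fits that left out 1 library, those without control replicate 3 and without *Phf2* KO replicate 3, and its adjusted p was 0.103 without control replicate 2.

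*Klhl41* (ENSMUSG00000075307, chromosome 2, 69670120 to 69684230, plus strand), the closest relative of *Klhl40* in this set, had 202.7, 197.6 and 160.2 CPM in control cells and 151.9, 144.1 and 159.7 CPM in *Phf2* KO cells. Control replicate 3 lay beside *Phf2* KO replicate 3, and the other control libraries were well above both; in TPM these 2 libraries changed order, with 137.6 and 140.7. The log2 fold change was -0.30 (95% interval -0.49 to -0.10, adjusted p = 0.0848), and *Klhl41* did not pass the threshold. It passed without control replicate 3 (adjusted p = 9.95e-04), with exactTest (0.0274) and with DESeq2 (0.00133); over all alternatives its adjusted p ran up to 0.249.

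The F-box genes were the members that were higher in *Phf2* KO cells. *Fbxo32* (ENSMUSG00000022358, chromosome 15, 58175879 to 58214932, minus strand) had 78.3, 73.8 and 83.2 CPM in control cells and 85.6, 86.0 and 88.9 CPM in *Phf2* KO cells. The groups did not overlap, but the gap between them was narrower than the spread of the control libraries. The log2 fold change was 0.15 (95% interval 0.036 to 0.26, adjusted p = 0.119), and the threshold was passed only without control replicate 3 (adjusted p = 0.0489). *Fbxo30* (ENSMUSG00000047648, chromosome 10, 11281330 to 11298052, plus strand) had 39.6, 42.0 and 35.9 CPM in control cells and 43.5, 40.7 and 43.3 CPM in *Phf2* KO cells. These groups overlapped, and the log2 fold change was 0.12 (95% interval -0.026 to 0.26, adjusted p = 0.377). Both intervals, which are not adjusted for the number of genes, end at 0.26.

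The ASB genes did not pass the threshold. *Asb2* (ENSMUSG00000021200, chromosome 12, 103321142 to 103356001, minus strand) had 8.71, 11.2 and 10.9 CPM in control cells and 5.74, 7.58 and 8.45 CPM in *Phf2* KO cells, from the lowest counts of the 10 genes. The groups did not overlap, with control replicate 1 just above *Phf2* KO replicate 3. For *Asb2* the log2 fold change was -0.50 (95% interval -0.84 to -0.17, adjusted p = 0.0767), as large as that of *Trim54* with a wider interval. With the replicate number as a block, *Asb2* passed the threshold (adjusted p = 0.0253, in a fit that called 7.6% of all genes). It also passed with DESeq2 (adjusted p = 0.0267) and in the fit on counts divided by 4. Summed over assembled loci, a choice made after the data were seen, its log2 ratio of mean TPM was -0.15 against -0.64 in the reference rows, and the groups overlapped. *Asb5* (ENSMUSG00000031519, chromosome 8, 54529580 to 54587875, plus strand) had 151.3, 150.0 and 142.0 CPM in control cells and 142.0, 134.0 and 134.6 CPM in *Phf2* KO cells. Control replicate 3 and *Phf2* KO replicate 1 met at the same level. For *Asb5* the log2 fold change was -0.11 (95% interval -0.21 to -0.013, adjusted p = 0.195).

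**Figure D3:**
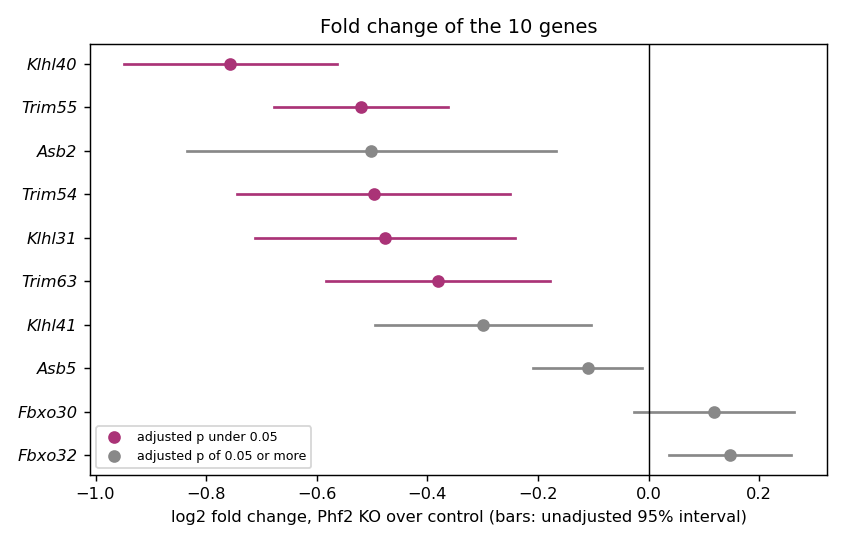
Log2 fold change of *Phf2* KO over control for the 10 genes from edgeR's quasi-likelihood fit, with unadjusted 95% intervals (3 libraries a group). The 5 coloured genes had an adjusted p under 0.05 and run from -0.76 for *Klhl40* to -0.38 for *Trim63*; the grey genes did not pass.

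Libraries with the same replicate number were also set side by side, since their deviations from the group mean were positively correlated, although the labels describe no pairing. In all 3 pairs, 8 genes were lower in the *Phf2* KO library, as were 21.1% of all genes tested, with *Klhl41* lower by 0.42, 0.46 and 0.0048 on the log2 scale. The median log2 difference of these 8 genes was -0.57 in pair 1, -0.59 in pair 2 and -0.27 in pair 3, and pair 3 lay nearest to 0 for 8 of 8. Pair 3 was also nearest to 0 for 315 of the 565 genes (55.8%) that were lower past the threshold among all genes.

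The balance of related members was measured as a ratio of TPM within each library, for 4 pairs of genes. The *Trim63* to *Fbxo32* ratio, between the MuRF1 and atrogin-1 genes that are commonly measured together, was 0.405 to 0.464 in control libraries and 0.279 to 0.323 in *Phf2* KO libraries. The log2 ratio was thus lower by 0.53 in *Phf2* KO cells, a difference of -0.53 (two-sided exact permutation test, p = 0.1, the smallest that 3 against 3 libraries allow; adjusted p = 0.2 over 4 pairs). The *Klhl40* to *Klhl41* ratio was 0.169 to 0.1815 in control libraries and 0.118 to 0.1365 in *Phf2* KO libraries, with a log2 difference of -0.46 (exact permutation p = 0.1, adjusted p = 0.2). In the reference rows the groups did not overlap for either ratio. Over assembled loci, a choice made after the data were seen, the *Trim63* to *Fbxo32* ratio was 1.56, 1.58 and 0.805 in control libraries and 0.938, 1.18 and 0.635 in *Phf2* KO libraries, so both its level and the separation of the groups depend on the rows used. The *Klhl40* to *Klhl41* ratio over assembled loci was 0.169 to 0.183 and 0.127 to 0.1525, still without overlap. The *Trim63* to *Trim55* ratio, both MuRF genes, was 0.288 to 0.312 and 0.309 to 0.353, and these groups overlapped (log2 difference 0.17, exact permutation p = 0.2, adjusted p = 0.2). The *Asb2* to *Asb5* ratio was 0.0356 to 0.0461 and 0.0176 to 0.0359 (log2 difference -0.60, exact permutation p = 0.2, adjusted p = 0.2). Without *Phf2* KO replicate 1, whose *Asb2* reference row held 3.45 TPM against 10.3 over assembled loci, that difference was -0.29, and over assembled loci in all 6 libraries it was -0.096. None of the 4 differences could pass a threshold of 0.05 in this design.

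The genes beside the 10 members were read from the same fit. Of the nearest tested gene on each side of each member, *Hhatl* was the only one past the threshold. *Hhatl* lies 198 bp from the end of *Klhl40* on the opposite strand, and fell from 3.85 to 2.42 mean CPM, by 0.67 on the log2 scale (SE 0.18, adjusted p = 0.0412). In the fit blocked by replicate number it did not pass (adjusted p = 0.0535), nor in any of 6 fits without 1 library. The other neighbour of *Klhl40*, *Zfp651*, had a log2 fold change of -0.15 (adjusted p = 0.114). *Spcs3*, which overlaps *Asb5* on the opposite strand at 57.9 to 67.3 TPM, had a log2 fold change of 0.047 (adjusted p = 0.714); how the counting used strand is not given in the sources used here.

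The machinery that the adaptors bind was counted beside the 6.48% of all genes that passed the threshold. Of 21 core genes of cullin ligases (cullins, their RING and linker subunits and the NEDD8 enzymes), 1 was lower and 0 higher past the threshold, and the median of their log2 fold changes was -0.021. The gene that fell was *Cand2*, a muscle-enriched exchange factor of cullin ligases, from 58.1 ± 2.80 to 40.6 ± 1.20 CPM (SD, n = 3; log2 fold change -0.52, adjusted p = 1.37e-04). *Cul3*, the cullin of the KLHL proteins, had a log2 fold change of 0.11 (adjusted p = 0.171), *Cul5* of 0.028 (adjusted p = 0.845) and *Cul1* of -0.028 (adjusted p = 0.835). Of 20 genes of ubiquitin, E1 and E2 enzymes, 1 was lower and 2 higher. *Cdc34*, an E2 of cullin ligases, fell (log2 fold change -0.31, adjusted p = 0.00265), and its relative *Ube2r2* rose (0.17, adjusted p = 0.028), as did *Ube2a* (0.26, adjusted p = 0.0337). Of 31 proteasome subunits, only *Psma2* passed, with a log2 fold change of -0.17 (adjusted p = 0.0417), and the median was -0.065 (exactTest called 0 of the 31 and DESeq2 3). *Ube2r2* and *Psma2* passed in none of 6 fits without 1 library, and *Ube2a* in 1.

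Other ligases studied in muscle were counted next. Of 20 tested, 3 were lower and 0 higher past the threshold (median 0.022 on the log2 scale). *Trim72*, which encodes MG53, a protein of sarcolemma repair, fell from 77.5 ± 7.18 to 53.3 ± 5.21 CPM (SD, n = 3; log2 fold change -0.54, adjusted p = 0.00274). *Fbxl22*, an F-box gene of the Z-disc, fell from 7.25 to 3.95 mean CPM (log2 fold change -0.88, adjusted p = 0.0141), and *Fbxo40*, a muscle F-box gene whose product acts on IRS1, fell from 1.31 to 0.426 mean CPM (log2 fold change -1.62, adjusted p = 0.0152). *Fbxl22* passed in 4 and *Fbxo40* in 3 of the 6 fits without 1 library.

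The other members of the same gene families were counted too. Of 25 other *Klhl* genes tested, 1 was lower past the threshold and 0 higher. This was *Klhl30*, a kelch gene, which fell from 94.3 ± 4.93 to 69.7 ± 1.81 CPM (SD, n = 3; log2 fold change -0.44, adjusted p = 1.79e-04), in all 19 alternatives. Of 9 other *Asb* and 7 *Kbtbd* genes, 0 passed the quasi-likelihood test, exactTest, DESeq2 or limma-voom (0 and 1 had an unadjusted p under 0.05), and 1 *Kbtbd* gene passed with the replicate block. Of 29 other *Fbxo* genes, *Fbxo40* was lower and *Fbxo11* higher (log2 fold change 0.23, adjusted p = 0.00955). Of 36 other *Trim* genes, 3 were lower and 0 higher: *Trim65* (-0.68, adjusted p = 0.00709), *Trim72* and *Trim16* (-0.36, adjusted p = 0.0315, passed in 1 of 6 fits without 1 library). Where a list of ligases, machinery, family members or regulators had 0 higher genes, exactTest gave 0 as well, and DESeq2 called 1 of the other muscle ligases, 2 other *Trim* genes and 1 of the regulators described below as higher.

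Described substrates and binding partners of the members came next. Of 18 tested, 9 were lower and 1 higher past the threshold (median -0.32 on the log2 scale). *Ckm*, *Des* and *Ttn* stand on this list and on that of the myotube markers, so the counts are not independent. Of the partners of KLHL40 and KLHL41, *Neb* (nebulin) fell from 680.6 ± 63.5 to 439.6 ± 40.55 CPM (SD, n = 3; log2 fold change -0.63, adjusted p = 0.00707) and *Lmod3* (leiomodin 3) by 0.59 on the log2 scale (adjusted p = 0.004). *Neb* did not pass with the replicate number as a block (adjusted p = 0.123), and among the fits without 1 library its largest adjusted p was 0.0518. *Mybpc1*, a myosin-binding protein, fell (-0.86, adjusted p = 0.00932), and so did *Ckm*, muscle creatine kinase (-0.78, adjusted p = 8.70e-05). Among the targets of ASB2 and KLHL31, *Flnc* fell (-0.19, adjusted p = 0.00877) and *Flna* rose (0.20, adjusted p = 0.00145).

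Of 15 transcription factors and cofactors described upstream of these genes, 5 were lower and 0 higher past the threshold (median -0.033 on the log2 scale). *Mef2c* fell from 36.85 to 12.8 mean CPM (log2 fold change -1.52, adjusted p = 6.97e-05), *Mef2d* from 180.4 to 148.7 (-0.28, adjusted p = 0.00173) and *Mef2a* by 0.21 on the log2 scale (adjusted p = 0.0156). *Myog*, the gene of myogenin, which is also on the list of myotube markers, fell by 0.34 on the log2 scale (adjusted p = 0.0221) and passed in 2 of 6 fits without 1 library. Some FOXO factors, though not every one, drive MuRF1 and atrogin-1 in wasting muscle. Of the FOXO genes, *Foxo6* fell (-0.64, adjusted p = 0.0136, past the threshold in 3 of 6 fits without 1 library). *Foxo1* (0.078, adjusted p = 0.512), *Foxo3* (0.16, adjusted p = 0.108) and *Foxo4* (0.17, adjusted p = 0.141) did not pass.

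**Figure D4:**
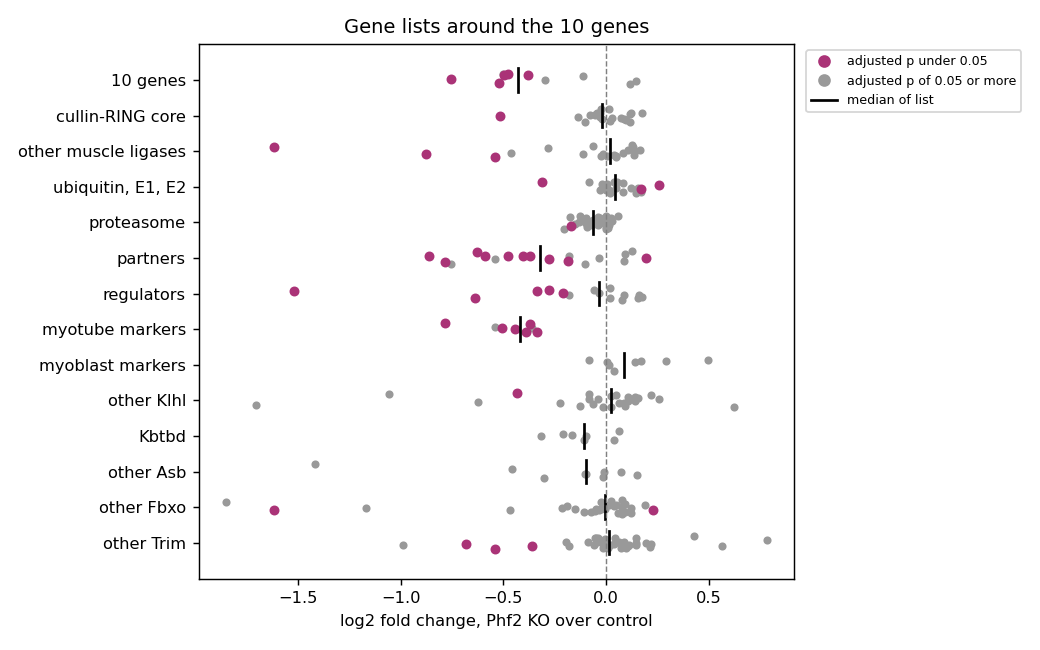
Log2 fold change of *Phf2* KO over control for the tested genes of each list, with 1 point per gene, coloured where the adjusted p was under 0.05, and a bar at the median of the list. The 10 genes (median -0.43), their partners (-0.32) and the myotube markers (-0.42) lie to the left, and the medians of the other lists lie between -0.11 for *Kbtbd* and 0.09 for the myoblast markers.

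Across the alternatives, *Klhl40* and *Trim55* passed the threshold in all 13 fits with 6 libraries and in all 6 without 1 library. *Trim54*, *Trim63* and *Klhl31* passed in 11 of those 13, all except limma run on TPM (with a pseudocount of 1 or 0.1), and in 2, 1 and 2 of the 6. The direction of each of the 10 genes was the same in all 19 fits.

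**Figure D5:**
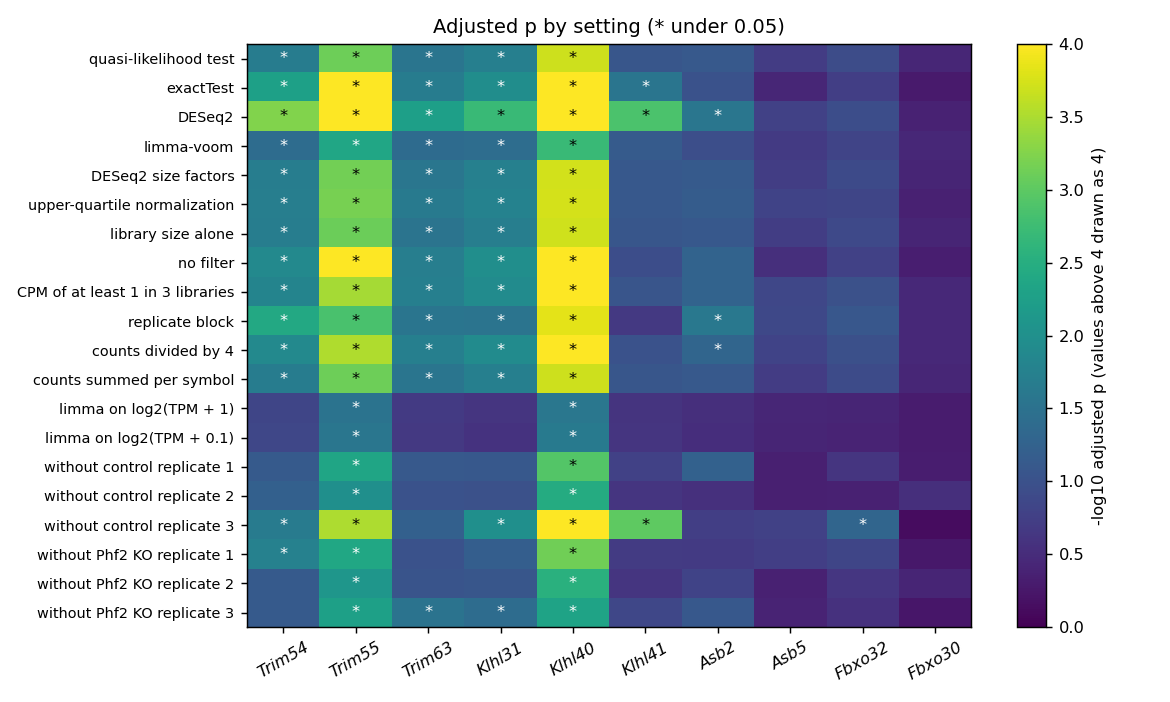
Adjusted p of the 10 genes (columns) in the quasi-likelihood test and 19 alternatives (rows), as -log10 with values above 4 drawn as 4, and a star where the adjusted p was under 0.05. *Klhl40* and *Trim55* carry a star in every row, and *Asb5* and *Fbxo30* in none.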

How the data were processed

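RNA sequencing of 6 C2C12 libraries was analysed. Per the study's methods, the authors aligned reads to mm10 with HISAT2 and had StringTie estimate counts per gene; versions and annotation are not given in the sources used here. The deposited matrix holds estimated counts, whole numbers without scaling. Each library also has a deposited table with TPM, a signal the authors scaled per library (rows of reference genes were used), and with coverage, read here only for the unit of the counts. Coordinates (mm10) are those of the deposited tables; promoter sequences are from RefSeq.

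In edgeR 4.0.16 (R 4.3.3), filterByExpr with a minimum count of 10 kept 17310 genes, TMM set the library sizes, and a robust quasi-likelihood F test compared the groups. This fit gave every adjusted p for which no other test is named (Benjamini-Hochberg over the 17310 genes, threshold 0.05). A standard error (SE) is the log2 fold change over the root of its F statistic. Alternatives used exactTest, DESeq2 1.42.0, limma 3.58.1, other scalings and filters, a replicate block and leaving out each library. The procedure was also run on simulated counts, drawn independently for each library. That simulation held neither the correlation between libraries of the same number nor the unit of about 4 counts per read pair.

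The members and gene lists were chosen with earlier results of these data known. Named genes were *Phf2*, the 10 members, at most 4 genes past the threshold of each list, and neighbours past the threshold; *Cul1*, *Cul3*, *Cul5*, *Foxo1*, *Foxo3*, *Foxo4*, *Mef2a*, *Flna*, *Flnc*, *Zfp651*, *Spcs3* and *BC002189* were named after their values were seen. Deviations from the group mean were correlated over the 10923 genes whose mean reached 5 CPM. Between libraries of the same number the correlations were 0.235, 0.258 and 0.168, across genes that are not independent replicates. For all other combinations they were below 0, from -0.241 to -0.0019. Deviations within a group sum to 0, so those negative values are not separate evidence of a pairing. The labels describe no pairing, so the block was an alternative.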

Additional observations from a re-analysis of the deposited data

How the results depend on the processing

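The number of genes past the threshold was 1122 of all genes, 5 of the 10 members and 27 of the genes in the surrounding lists. Under limma on log2(TPM + 1), and then with a pseudocount of 0.1, these became 158 and 178 of all genes, 2 and 2 members and 6 and 7 list genes. With an adjusted p under 0.01 they became 472, 2 and 16. Without 1 library they ran from 468 to 1039 for all genes, from 2 to 6 for the members and from 15 to 31 for the lists, with 2 members when either of control replicates 1 and 2 was left out, 2 without *Phf2* KO replicate 2, and 3 when *Phf2* KO replicate 1 was. For all genes leaving out control replicate 2 gave 468, *Phf2* KO replicate 2 gave 577 and *Phf2* KO replicate 3 gave 613, and for the lists 15 in each of the first 2 cases. With the replicate number as a block, 1316 genes, 6 members and 35 list genes passed; among the members the block changed only the call of *Asb2*. No direction of a member was reversed by any alternative, and with CPM, a pseudocount of 1 or 1 library left out the 4 ratios between members moved by less than the larger of the SDs of the 2 groups, although *Asb2* to *Asb5* ran from -0.80 to -0.29 when 1 library was left out. Over assembled loci the log2 differences were 0.056 for *Trim63* to *Trim55*, -0.50 for *Trim63* to *Fbxo32*, -0.32 for *Klhl40* to *Klhl41* and -0.096 for *Asb2* to *Asb5*. The cause of these differences was not tested. *Asb2* had 353 to 652 counts in a library, with a read pair adding about 4, and its interval was the widest of the 10 genes. With counts divided by 4, 1286 of all genes and 6 members passed, *Asb2* among them.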

Other observations

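The deposited tables also list loci that were assembled from the reads, and these were summed over each member's strand after the values of the reference rows had been seen. For 9 of the 10 genes the control mean of the assembled loci lay close to that of the reference rows, with ratios from 0.998 to 1.07. *Trim63* was the exception, with 31.8 ± 9.49 TPM over assembled loci against 10.55 TPM in the reference rows (SD, n = 3 control libraries), a ratio of 3.01. Its locus was assembled as 2 pieces in control replicates 1 and 2 (37.7 and 36.8 TPM) and in *Phf2* KO replicates 1 and 2 (24.6 and 31.4 TPM). It was assembled as 1 piece in control replicate 3 (20.8 TPM) and *Phf2* KO replicate 3 (18.1 TPM). The number of pieces thus differed between libraries, and the groups overlapped. Within each pair of the same replicate number the *Phf2* KO library was the lower one, as in the reference rows.

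For *Asb2* the assembled loci gave a smaller difference, with a log2 ratio of group means of -0.15 against -0.64 in the reference rows. Here *Phf2* KO replicate 1 was assembled as 2 pieces with a sum of 10.3 TPM, against 3.45 TPM in its reference row, while the other 5 libraries had 1 piece each. The other 8 genes had log2 ratios over assembled loci of the same sign as in the reference rows, from -0.60 for *Klhl40* to 0.15 for *Fbxo32*. No test was run on these values.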
